A study of Mus musculus with 6 samples.

Results

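Transcription factors that set the fate of myeloid cells were followed in mouse bone marrow cells sorted for the macrophage surface protein F4/80. The 9 genes were Spi1, Spic, Maf, Cebpa, Cebpb, Cebpe, Gfi1, Runx1 and Myb, taken by symbol from a deposited table of 11489 genes, which held all 9. Total RNA was sequenced from 6 libraries. In 3 of them the F4/80+ cells carried green fluorescence from an erythropoietin receptor reporter (Epor-eGFP+), and in the other 3 they did not (Epor-eGFP-). The labels call the cells of both groups erythroblastic island macrophages. They give no treatment, mouse strain, age or number of animals, and they do not say how the reporter was built. They also do not say whether libraries of a group came from separate mice, so a p-value here speaks only for library-to-library spread, possibly technical. Libraries are named by the number in their column, and values per library follow the order 0, 1, 2.

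PU.1, the product of Spi1, is an ETS factor needed for macrophages and granulocytes, and Spi-C, its close relative, drives the macrophages of the splenic red pulp that recycle iron from red cells. c-Maf, from Maf, acts in mature macrophages and helps to hold them out of cell division. C/EBP alpha opens the granulocyte and monocyte path, C/EBP epsilon is needed for the later granules of neutrophils and eosinophils, and C/EBP beta acts in inflammatory myeloid cells and in granulocyte production on demand. Gfi1 is a repressor that favours granulocytes over monocytes. Runx1 and Myb are factors of stem and progenitor cells, and both act on genes of the early granules.

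Neutrophil transcripts stood beside macrophage transcripts in both groups. Levels are FPKM, fragments per length of gene and per library size, and their totals per library ran from 467176 to 519650. Adgre1, which codes for F4/80, was at 167 ± 65.5 FPKM in Epor-eGFP+ and 136 ± 3.85 in Epor-eGFP- (adjusted p = 0.463). Summed FPKM of 10 macrophage markers ran from 1007 to 2886 in Epor-eGFP+ libraries and from 584 to 825 in Epor-eGFP- libraries. By the test described below, 6 of them were called higher, where 22.7% of all tested genes were. The other 4 had no call, among them Csf1r at 231 against 288 FPKM. Vcam1 alone averaged 560 against 31.8 FPKM. For 10 maturing neutrophil markers in the table the sums were 13183 to 17136 and 24609 to 38821. Epor averaged 5.96 FPKM in Epor-eGFP+ and 0.335 in Epor-eGFP-. In bulk RNA, a change in the share of cells of a type and a change of RNA per cell cannot be told apart. Read depth is unknown, since FPKM carry no counts.

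Spic, Maf, Gfi1 and Myb rose in Epor-eGFP+ cells, while Spi1, Cebpb and Runx1 fell. Cebpa and Cebpe did not pass the test. Calls are from limma on log2(FPKM + 1) over the 10964 genes that averaged 1 FPKM or more, at a Benjamini-Hochberg adjusted p under 0.05. Every one of the 9 factors passed the filter. The 4 factors called higher stand against 22.7% of all tested genes, and the 3 called lower against 26.3%, so that 7 of 9 were called where 49.0% of all genes were. Groups did not overlap for 7 factors, against 60.4% of all genes, with Epor-eGFP+ above for 4 (28.4% of all genes) and below for 3 (31.9%). The median log2 fold change was −0.04 over the 9 factors, the value of Cebpa, whose sign turned with the scaling, and −0.01 over all tested genes. With libraries rescaled to a common total, the split over all genes turned from 46.3% to 59.5% higher among called genes, and the median of all genes moved to 0.08. The largest rises, of Spic and Maf, were those of factors of mature macrophages.

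**Figure D1:**
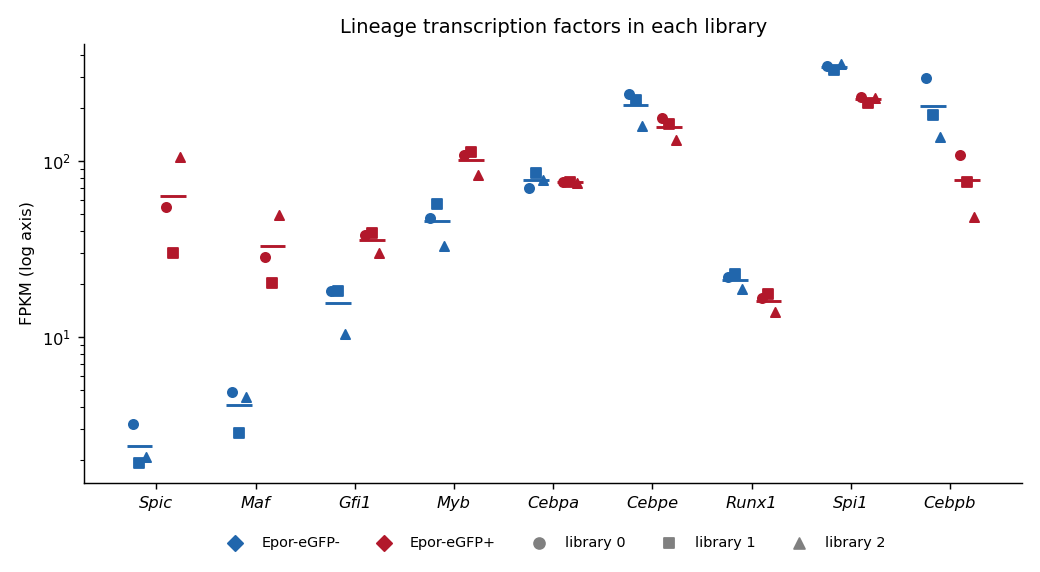
FPKM on a log axis of the 9 lineage factors in each library, Epor-eGFP- in blue and Epor-eGFP+ in red, with symbols for the library number and bars for the mean of 3 libraries. Spic and Maf stand well apart between groups, Gfi1 and Myb stand higher and Spi1, Cebpb and Runx1 lower in Epor-eGFP+, and Cebpa and Cebpe overlap.

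RefSeq promoter entries (GRCm38.p6) were at hand for 6 of the 9 factors. The 250 bases before a start are shown for the factor with the largest rise (Spic), for a progenitor factor that rose (Myb), for the factor with the largest fall (Cebpb) and for the listed start of Runx1 that lies farther inside the gene, because the windows differ in base composition and in the letters they hold. Capitals mark matches, on either strand, to the letters GAGGAA (ETS core of PU.1), TTGCNNAA (C/EBP), TGCTGA (a core shared by Maf sites, which can lie inside a C/EBP match), TGTGGT (Runx), AACTGNC (Myb) and AAATCNC (Gfi1). The windows lie at chr10:88683024-88683273 (minus strand, Spic), chr10:21160985-21161234 (minus, Myb), chr2:167688665-167688914 (plus, Cebpb) and chr16:92697330-92697579 (minus, Runx1).
Spic: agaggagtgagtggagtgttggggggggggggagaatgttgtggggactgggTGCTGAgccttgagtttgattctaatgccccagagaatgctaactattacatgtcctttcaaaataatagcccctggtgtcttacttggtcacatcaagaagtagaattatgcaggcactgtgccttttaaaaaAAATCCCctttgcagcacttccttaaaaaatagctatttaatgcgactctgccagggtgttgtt
Myb: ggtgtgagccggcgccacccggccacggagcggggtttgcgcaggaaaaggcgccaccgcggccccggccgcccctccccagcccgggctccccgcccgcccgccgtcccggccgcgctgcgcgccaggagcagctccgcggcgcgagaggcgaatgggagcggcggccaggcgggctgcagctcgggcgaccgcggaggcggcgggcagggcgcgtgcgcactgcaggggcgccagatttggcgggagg
Cebpb: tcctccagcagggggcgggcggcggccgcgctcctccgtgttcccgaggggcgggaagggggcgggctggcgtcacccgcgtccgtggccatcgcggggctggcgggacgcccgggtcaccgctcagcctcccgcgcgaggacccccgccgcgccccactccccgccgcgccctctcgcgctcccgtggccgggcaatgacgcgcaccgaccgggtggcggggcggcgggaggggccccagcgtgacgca
Runx1: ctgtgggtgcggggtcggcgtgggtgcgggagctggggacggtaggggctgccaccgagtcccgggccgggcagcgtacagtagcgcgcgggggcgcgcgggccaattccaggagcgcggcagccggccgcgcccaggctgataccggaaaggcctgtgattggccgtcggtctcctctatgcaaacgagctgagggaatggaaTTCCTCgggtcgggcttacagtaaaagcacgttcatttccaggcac
The Spic window was 44.8% G and C and held a Maf core and a Gfi1 match, which occur in 16.1% and 10.3% of 32851 such windows. The Myb and Cebpb windows, at 81.2% and 81.6% G and C against a median of 52.4%, held none of the letters, like 41.2% of all windows. The Runx1 window held an ETS core on the reverse strand, which occurs in 23.3% of windows. The RefSeq start of Spic lies inside the longer GENCODE gene. A match describes letters and shows no binding.

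Spic, the factor of red pulp macrophages, was the most changed of the 9. It stood at 55.0, 30.2 and 105 FPKM in Epor-eGFP+ and at 3.23, 1.93 and 2.09 in Epor-eGFP-. Every Epor-eGFP+ library lay far above every Epor-eGFP- library, and within Epor-eGFP+ the highest was 3.47 times the lowest. The means were 63.3 ± 37.96 and 2.42 ± 0.708 FPKM (SD, n = 3 per group), 26.2-fold apart (log2 fold change 4.08, SE 0.41, limma adjusted p = 0.000699). Among all genes of the table, Spic stood at percentile 89.8 by its Epor-eGFP+ mean and at percentile 16.5 by its Epor-eGFP- mean. Without Epor-eGFP+ library 2 its mean was 42.6 FPKM and its log2 fold change 3.63. In GRCm38, used for all positions here, Spic occupies 88674772 to 88685015 of chromosome 10, minus strand.

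Maf rose in the same libraries. It stood at 28.6, 20.2 and 49.3 FPKM in Epor-eGFP+ and at 4.87, 2.85 and 4.58 in Epor-eGFP-. Library 2 was again the highest and library 1 the lowest of Epor-eGFP+, and the groups did not overlap. The means were 32.7 ± 14.98 and 4.10 ± 1.09 FPKM (7.98-fold, log2 fold change 2.66, SE 0.32, limma adjusted p = 0.00113). Maf occupies 115682942 to 115707794 of chromosome 8, minus strand, and shares 440 exonic bases with an antisense gene.

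Spi1 was the most abundant of the 9 in both groups and yet fell. It stood at 231, 213 and 226 FPKM in Epor-eGFP+ and at 344, 327 and 354 in Epor-eGFP-. Libraries within a group were close, with a coefficient of variation of 4.20% and 4.04%, and the groups stood apart. The mean was 34.7% lower, at 223 ± 9.37 against 342 ± 13.8 FPKM (log2 fold change −0.61, SE 0.07, limma adjusted p = 0.00117). Spi1 still stood at percentile 97.5 of all genes in Epor-eGFP+. It occupies 91082390 to 91115756 of chromosome 2, plus strand.

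The ratio of the ETS relatives did not overlap between groups. The separate ranges of Spic and Spi1 already fixed this and the exact p-value of the ratio, so the ratio only describes its size. Spi1 exceeded Spic 4.20, 7.05 and 2.16 times in Epor-eGFP+, and 107, 170 and 170 times in Epor-eGFP-. The within-library difference of log2(FPKM + 1), Spic minus Spi1, averaged −1.98 ± 0.84 against −6.67 ± 0.28 (SD, n = 3 per group, a shift of 4.69). An exact two-sided permutation test gave p = 0.1, the smallest that 3 against 3 libraries allow. The same exact p of 0.1 held for FPKM of each of the 7 called factors.

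Gfi1 and Myb, factors of immature cells, rose by about the same factor. Gfi1 stood at 38.1, 39.1 and 30.0 FPKM in Epor-eGFP+ and at 18.2, 18.3 and 10.4 in Epor-eGFP-. Library 2 was the lowest in either group, the reverse of Spic and Maf within Epor-eGFP+. The means were 35.8 ± 4.99 and 15.6 ± 4.55 FPKM (2.29-fold, log2 fold change 1.18, SE 0.22, limma adjusted p = 0.00526). Myb stood at 108, 113 and 83.1 FPKM in Epor-eGFP+ and at 47.6, 56.6 and 32.8 in Epor-eGFP-. Here too library 2 was the lowest of each group and the groups did not overlap. The means were 101 ± 15.9 and 45.6 ± 12 FPKM (2.22-fold, log2 fold change 1.15, SE 0.21, limma adjusted p = 0.00469). Gfi1 occupies 107716657 to 107726036 of chromosome 5 and Myb 21124935 to 21160984 of chromosome 10, both minus strand. Gfi1 shares 101 exonic bases and Myb 559 with genes of the other strand.

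Some markers of other cells moved beside these rises, where 22.7% of all tested genes were called higher and 26.3% lower in the reported setting. Under other settings calls over all genes changed as well. The sum of 6 azurophil granule and other genes that promyelocytes transcribe ran from 7964 to 9902 FPKM in Epor-eGFP+ and from 1544 to 2867 in Epor-eGFP-, and 6 of 6 were called higher. The sum of the 10 erythroid markers in the table ran from 339 to 925 and from 48.7 to 307, with 7 called higher and none lower. Of 9 stem and progenitor markers none was called higher and 3 were called lower, and Kit, the stem cell factor receptor, was at 30.3 ± 4.06 against 20.5 ± 6.60 FPKM (0.58, adjusted p = 0.0797). With a replicate block on the column number, without Epor-eGFP- library 1 or without both libraries numbered 2, 1 progenitor marker was called higher, with the block Kit (adjusted p = 0.0136). The lower count was 1 without Epor-eGFP- library 0 or 1, and 5 without Epor-eGFP- library 2, alone or with its Epor-eGFP+ match. Of 10 cell cycle genes 2 were called higher and none lower (median 0.20), or 5 with the replicate block, 4 without Epor-eGFP- library 1 and 1 without Epor-eGFP- library 0 or Epor-eGFP+ library 0. Their median was 0.11 without Epor-eGFP+ library 1, 0.12 without Epor-eGFP- library 2, 0.31 without Epor-eGFP- library 1 and 0.32 under quantile scaling. The part of these cells in the rises of Gfi1 and Myb was not tested.

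The 3 C/EBP factors behaved differently. Cebpa stood at 76.0, 75.4 and 75.1 FPKM in Epor-eGFP+ and at 70.1, 85.1 and 78.0 in Epor-eGFP-. Its Epor-eGFP+ values lay inside the Epor-eGFP- range. The means were 75.5 ± 0.490 and 77.7 ± 7.49 FPKM, and the log2 fold change was −0.04 (95% interval −0.24 to 0.16, limma adjusted p = 0.734). Its sign was positive under rescaling by the total, the upper quartile or quantiles and without Epor-eGFP- library 1. Cebpa, which shares 51 exonic bases with an antisense gene, occupies 35119293 to 35121928 of chromosome 7, plus strand.

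Cebpb fell the most of the 9. It stood at 108, 76.3 and 47.9 FPKM in Epor-eGFP+ and at 295, 182 and 137 in Epor-eGFP-. In both groups library 0 was the highest and library 2 the lowest, and every Epor-eGFP+ library lay below every Epor-eGFP- library. The mean was 62.1% lower, at 77.5 ± 30.2 against 205 ± 81.2 FPKM (log2 fold change −1.39, SE 0.36, limma adjusted p = 0.0175). Without Epor-eGFP- library 0 the log2 fold change was −1.09 and the call was lost (adjusted p = 0.0518). Cebpb occupies 167688915 to 167690418 of chromosome 2, plus strand, and shares 312 exonic bases with Tmem189 on the other strand. The kit named in the labels is not stated to keep strand, and Tmem189 was lower as well (−0.44), so reads of the shared bases cannot be assigned. The same limit holds for the shared bases of Maf, Cebpa, Gfi1, Runx1 and Myb, whose overlapping genes have no FPKM here.

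Cebpe was abundant in both groups and missed the threshold when no block was used. It stood at 175, 161 and 132 FPKM in Epor-eGFP+ and at 239, 221 and 158 in Epor-eGFP-. The groups overlapped only through Epor-eGFP- library 2, while for each column number the Epor-eGFP+ library was the lower. The means were 156 ± 21.9 and 206 ± 42.4 FPKM (log2 fold change −0.39, 95% interval −0.81 to 0.03, limma adjusted p = 0.109). With the replicate block Cebpe was called lower (adjusted p = 0.00799), as it was without Epor-eGFP- library 2 (−0.57, adjusted p = 0.0204). Cebpe occupies 54710360 to 54712174 of chromosome 14, minus strand.

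Together the 3 genes summed to 309 ± 52.3 FPKM in Epor-eGFP+ and 488 ± 115 in Epor-eGFP-. Cebpb made up 24.5% ± 5.68 of that sum in Epor-eGFP+ and 40.9% ± 6.84 in Epor-eGFP-, Cebpe 50.6% ± 1.70 and 42.4% ± 2.88, and Cebpa 24.9% ± 4.20 and 16.6% ± 4.69 (SD, n = 3 per group). Cebpe exceeded Cebpa 2.30, 2.13 and 1.76 times in Epor-eGFP+, and 3.41, 2.60 and 2.03 times in Epor-eGFP-. These ratios overlapped between groups, and the within-library log2 difference shifted by −0.35 (exact two-sided permutation p = 0.3, with the column numbers ignored). In each of the 3 same-numbered pairs the Epor-eGFP+ ratio was the lower.

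Runx1 was the least abundant of the 9 in Epor-eGFP+ and had the smallest called change. It stood at 16.6, 17.6 and 13.8 FPKM in Epor-eGFP+ and at 21.9, 22.8 and 18.7 in Epor-eGFP-. Library 1 was the highest and library 2 the lowest of each group, and the groups lay close without overlapping. The mean was 24.2% lower, at 16.01 ± 1.95 against 21.1 ± 2.17 FPKM (log2 fold change −0.38, SE 0.11, limma adjusted p = 0.0308). The call was lost under rescaling by the total (adjusted p = 0.120), by the upper quartile (0.0757) and by quantiles (0.0527). It was also lost without Epor-eGFP- library 0 (0.0994) or 1 (0.0868) and without Epor-eGFP+ library 0 (0.0688) or 2 (0.0639). Runx1, which shares 106 exonic bases with an antisense gene, occupies 92601466 to 92826149 of chromosome 16, minus strand.

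Relatives of these factors were mostly lower or without a call, as were most tested genes. Of all tested genes 22.7% were called higher and 26.3% lower, and the counts in this and the following lists stand against those shares. The shares are those of the reported setting. Calls over all genes also changed with the setting, from 1611 to 3066 higher and from 2060 to 3335 lower. Each list of relatives includes the factors of that family reported above. Changes given for the relatives and the genes that follow are log2 fold changes. Of 15 ETS factors 8 fell, 6 had no call and Spic alone rose (median −0.39). Elf4, an ETS factor that restrains T cell division, fell from 62.8 ± 4.70 to 32.6 ± 0.500 FPKM (−0.92, SE 0.08), and Elk3 (−0.69) and Ets1 (−0.67) fell too. Of 7 genes listed with the C/EBP factors 3 fell and 4 had no call (median −0.39, or −0.20 under quantile scaling). Cebpd, which is induced in inflammation, was at −0.73 (SE 0.12) and Cebpg at −0.55 (SE 0.13) beside Cebpb. Among those without a call was Cebpz, listed by its symbol though its product is not a C/EBP factor.

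Of 9 tested Maf factors and partners 3 rose, 5 fell and 1 had no call (median −0.29, from −0.43 at a minimum mean of 5 FPKM to −0.19 under rescaling by the total), and 1 was called higher without Epor-eGFP+ library 0. Bach1, the heme-sensing repressor that pairs with small Maf factors and acts on Spic, fell from 47.7 ± 8.59 to 19.8 ± 1.56 FPKM (−1.22, SE 0.13, limma adjusted p = 0.000861). Bach1 stood at 19.0, 21.6 and 18.8 FPKM in Epor-eGFP+ and at 45.2, 40.6 and 57.3 in Epor-eGFP-. Nfe2, a factor of megakaryocytes and erythroid cells, fell from 190 ± 8.29 to 89.4 ± 8.19 FPKM (−1.09, SE 0.09).

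Of 6 tested genes of the Runx group 5 fell and 1 had no call (median −0.36), and Cbfa2t3, a corepressor of the ETO family, fell most (−0.88, SE 0.09). That count of 5 was 1 under rescaling by the total, 2 by the upper quartile and 3 by quantiles. Over all genes 2883 were called lower as reported, and 2082, 2404 and 2912 under these scalings. The Runx count was 1 without Epor-eGFP- library 0 or 1, 2 without Epor-eGFP+ library 0 and 3 without Epor-eGFP+ library 2. Lower calls over all genes were then 2112 or 2655, 2060 and 2700. Runx2 (−0.50) and Runx3 (−0.34) were called lower with Runx1.

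Mybl2, a cell cycle factor and the only other tested Myb factor, rose by 0.62 (SE 0.17). Mybl2 lost its call without Epor-eGFP- library 0 or 2 and without Epor-eGFP+ library 0 or 1, with adjusted p from 0.0618 to 0.0731. Of 9 genes of Gfi1 and its CoREST corepressor, Gfi1 rose, Rcor3 fell (−0.45, SE 0.11) and 7 had no call. Their median lay near 0 (0.018) and its sign was not stable, running from −0.048 without Epor-eGFP+ library 1 and −0.031 without Epor-eGFP- library 2 to 0.099 without Epor-eGFP+ library 2, 0.10 without Epor-eGFP- library 1 and 0.11 under rescaling by the total. With the replicate block 3 of them were higher, and without Epor-eGFP+ library 2, alone or with its Epor-eGFP- match, 2 were. Rcor3 lost its call without Epor-eGFP+ library 0 (adjusted p = 0.0532) and under rescaling by the total (0.0535).

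**Figure D2:**
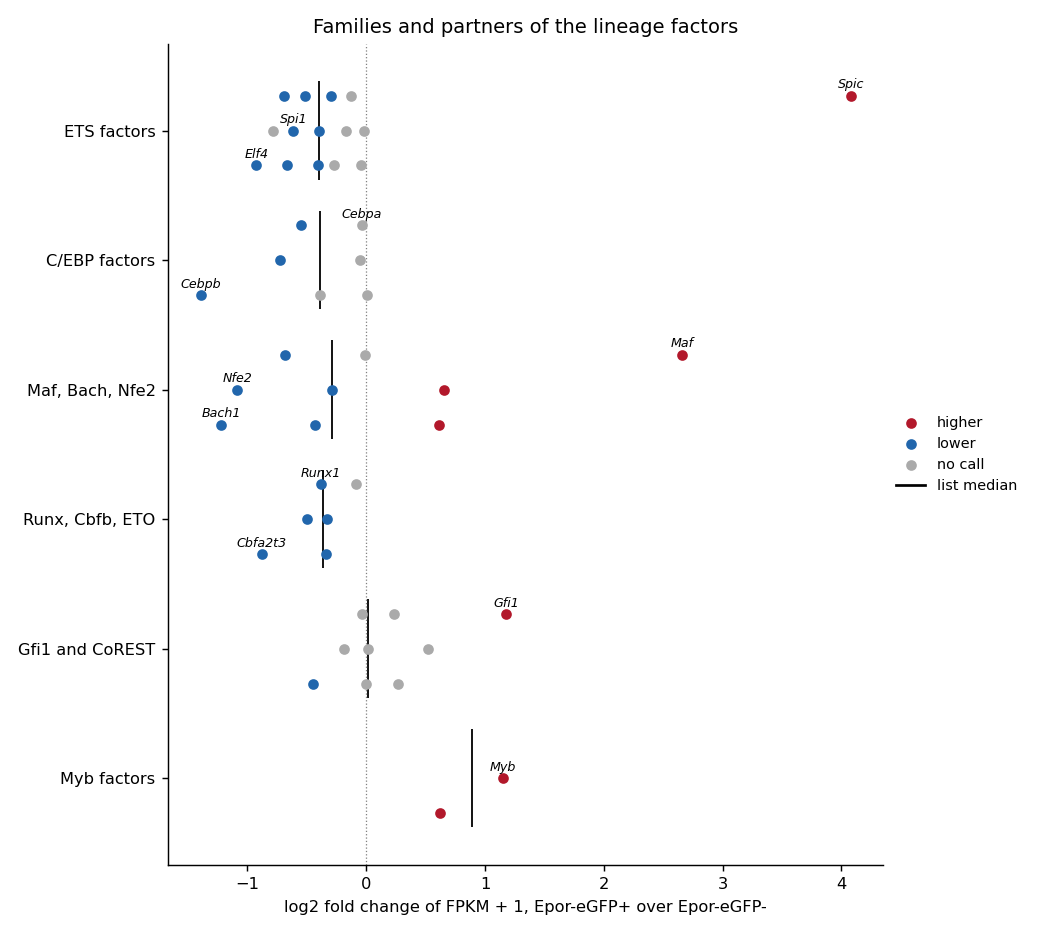
Log2 fold change of FPKM + 1, Epor-eGFP+ over Epor-eGFP-, for the tested genes in 6 lists of families and partners. Each gene is 1 point coloured by its call, and a black line marks each list's median. Spic, at 4.08, stands apart from the other ETS factors, and Maf lies to the right of Bach1 and Nfe2.

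Other factors of myeloid and progenitor cells numbered 32 tested, of which 13 fell, 5 rose and 14 stayed without a call (median −0.39). Nr1h3, the sterol receptor LXR alpha that acts in macrophages, rose from 1.78 ± 0.285 to 38.2 ± 20.1 FPKM (3.70, SE 0.33), and Pparg, a lipid-sensing nuclear receptor, by 1.80 (SE 0.37). Rara, the retinoic acid receptor alpha that acts in granulocyte maturation, fell from 58.2 ± 12.6 to 14.8 ± 1.34 FPKM (−1.88, SE 0.15). Nr4a1, which non-classical monocytes need, fell by 1.70 on the log2 scale (SE 0.30).

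Most genes tied to Maf factors and Spi-C rose. Of 5 tested genes on which Maf factors are known to act, 5 rose (median 5.02), C1qa, C1qb and C1qc by more than the other 2, Cd163 and Mrc1. Of 8 genes listed here with Spi-C, not all of them particular to red pulp macrophages, 7 rose and Treml4 had no call (median 3.66). Vcam1, an adhesion molecule, stood at 3.90 (SE 0.46) and Slc40a1, the iron exporter, at 3.77 (SE 0.43). Treml4, a receptor of red pulp macrophages, was at 35.8, 25.8 and 62.8 FPKM in Epor-eGFP+ and at 31.0, 11.0 and 26.2 in Epor-eGFP- (0.87, adjusted p = 0.142). It was higher in each same-numbered pair, and with the replicate block it was called higher (adjusted p = 0.0244). The 8 genes listed with Spi-C summed to 2275, 1156 and 4523 FPKM in Epor-eGFP+, the order of Spic, and to 164 to 226 in Epor-eGFP-. Cd163 is in both lists, and 3 of the 8 and 2 of the 5 genes are also among the macrophage markers summed above. The part of a changed share of macrophages in these rises was not tested.

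Genes tied to PU.1 mostly fell with Spi1. Of 17 tested, 10 fell, 2 rose and 5 had no call (median −0.52), and with the replicate block 13 were lower and 4 higher. Itgam, the integrin chain CD11b, fell from 297 ± 16.4 to 94.8 ± 14.9 FPKM (−1.64, SE 0.12), and Itgb2 (−1.18, SE 0.10), its partner chain, and Cybb (−1.60, SE 0.10), a subunit of the phagocyte oxidase, fell too. Mrc1 (4.17) and Cd14 (1.01) rose. Csf1r, the receptor of macrophage colony-stimulating factor and a known PU.1 target, was at 231 ± 50.3 against 288 ± 61.3 FPKM (−0.32, adjusted p = 0.218). It was lower in each same-numbered pair and was called lower with the replicate block (adjusted p = 0.0145). Of 8 monocyte markers 8 were called lower beside this, with sums of 1245 to 1557 FPKM in Epor-eGFP+ and 3005 to 4233 in Epor-eGFP-. Of 10 neutrophil markers 10 were called lower too, with sums of 13183 to 17136 and 24609 to 38821 FPKM. Some of the 17 genes are also among the neutrophil or macrophage markers, Csf1r and Mrc1 among the latter. The part of these cells in the falls of Spi1 and of the genes tied to PU.1 was not tested.

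Early and late granule genes parted. C/EBP alpha, Runx1 and Myb act on azurophil granule genes. Of 6 azurophil granule and other promyelocyte genes 6 rose (median 2.16), Elane by 2.33, Ctsg by 2.17, Prtn3 and Mpo both by 2.16. Of 9 genes of later granules and late maturation that need C/EBP epsilon 8 fell and Mmp9 had no call (median −1.51). The first list includes Ms4a3 and the second Itgb2l and Ltb4r1, which code for membrane proteins, and the first also Cst7, a protease inhibitor. Mmp9, a gelatinase, stood at 65.6, 34.2 and 22.5 FPKM in Epor-eGFP+ and at 69.7, 58.5 and 52.5 in Epor-eGFP- (−0.68, adjusted p = 0.148), and it was called lower with the replicate block (0.0442) and without Epor-eGFP+ library 0. Mmp8, a collagenase, fell by 2.34 (SE 0.16) and Ltf, lactoferrin, by 1.99 (SE 0.22) on the log2 scale, while Cebpe itself was at −0.39. The 9 genes of the later granule list summed to 5344 to 6420 FPKM in Epor-eGFP+ and 12065 to 18807 in Epor-eGFP-. Of the 10 neutrophil markers, 5 of which are also in the later granule list, 10 were called lower, or 6 without Epor-eGFP+ library 0. Without that library lower calls over all genes were 2060 against 2883 as reported. The part of neutrophils in the values of Cebpb and Cebpe was not tested. Eosinophil genes moved both ways, with 2 of 7 higher and 3 lower, and 1 lower under rescaling by the total or when Epor-eGFP- library 0 or 1 or Epor-eGFP+ library 1 or 2 was left out. Prg2, a granule protein gene of eosinophils, which need C/EBP epsilon, is listed at 0 in Epor-eGFP+ library 0 and at 10348 and 11088 FPKM in libraries 1 and 2. Of 4 tested inflammatory genes on which C/EBP beta acts, Tnf fell (−0.96, SE 0.24) and 3 had no call (median −0.44). That median ran from −0.75 without Epor-eGFP+ library 1 to −0.0017 without Epor-eGFP+ library 2, and was −0.28 without Epor-eGFP- library 1 and −0.68 without Epor-eGFP- library 2. Tnf lost its call without Epor-eGFP- library 0 (adjusted p = 0.0538) or Epor-eGFP+ library 0 (0.0505), and a minimum mean of 5 FPKM removed it.

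**Figure D3:**
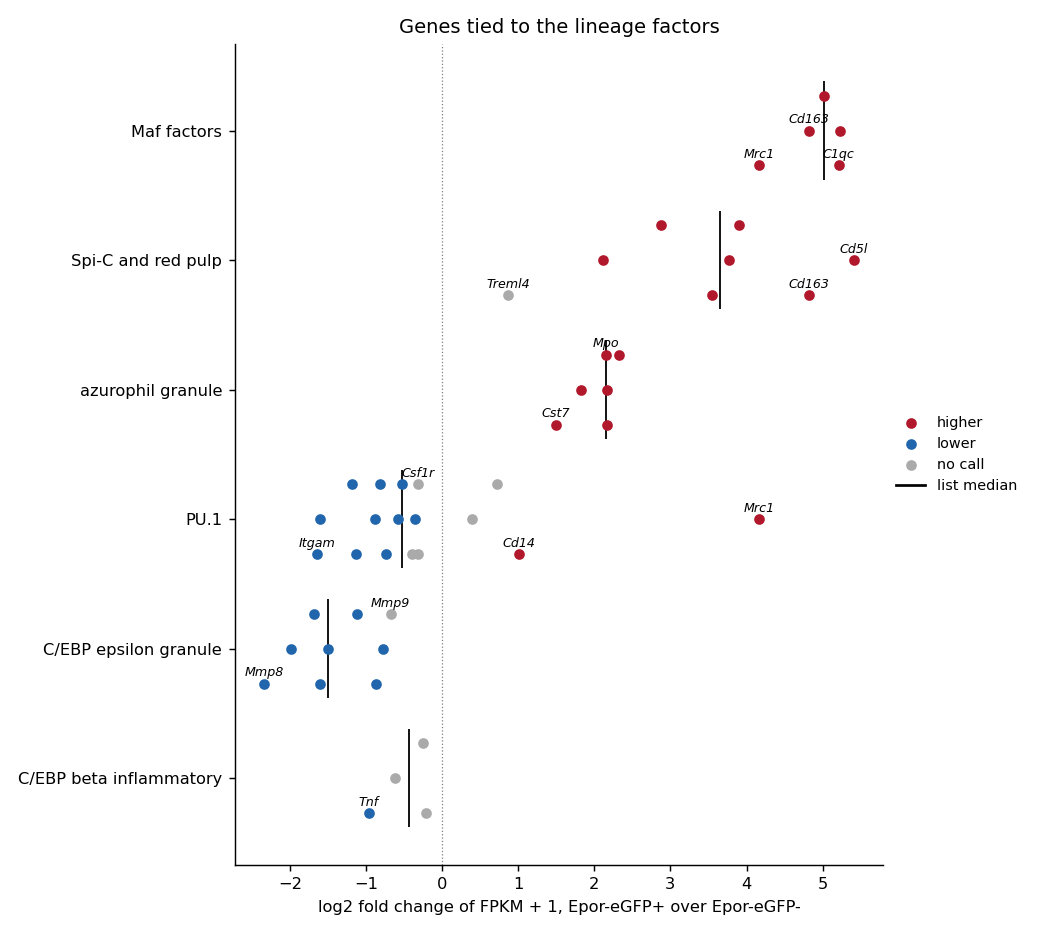
Log2 fold change of FPKM + 1, Epor-eGFP+ over Epor-eGFP-, for genes tied to the lineage factors, in 6 lists with 1 point per gene, colour for the call and a black line at each median. The Maf factor, Spi-C and azurophil lists lie to the right of 0 and the C/EBP epsilon list to the left, and the PU.1 list lies mostly to the left with Mrc1 at 4.17.

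The factors also varied among themselves within a group. In Epor-eGFP+, library 2 was the highest for Spic and Maf and the lowest for Cebpa, Cebpb, Cebpe, Gfi1, Runx1 and Myb. In Epor-eGFP-, library 2 was the lowest for Cebpb, Cebpe, Gfi1, Runx1 and Myb but not for Cebpa. The Epor-eGFP+ coefficient of variation ran from 0.650% for Cebpa and 4.20% for Spi1 to 45.8% for Maf and 60.0% for Spic. Summed macrophage markers in Epor-eGFP+ were 1437, 1007 and 2886 FPKM in libraries 0, 1 and 2, the order of Spic and Maf, while azurophil sums were 8389, 9902 and 7964, the order of Gfi1 and Myb. Runx1 and the cell cycle and neutrophil sums had that latter order as well. In Epor-eGFP- the macrophage sum was highest in library 2, but Spic and Maf were highest in library 0. The azurophil sums kept the order of Gfi1 and Myb there. These are orders over 3 libraries, and what sets them was not tested.

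**Figure D4:**
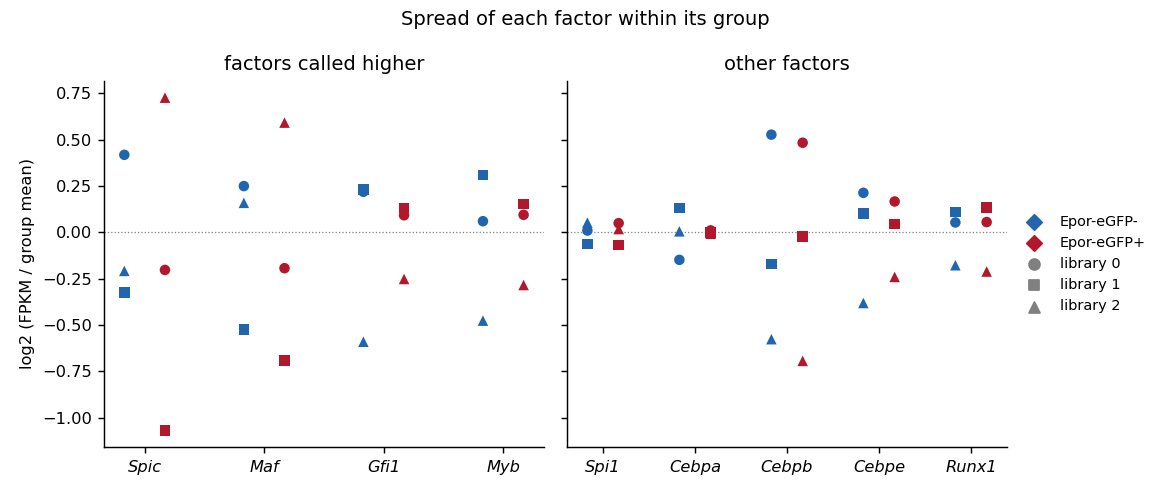
Deviation of each factor from its group mean, as log2 of FPKM over the mean of the 3 libraries, with Epor-eGFP- in blue, Epor-eGFP+ in red and symbols for the library number. The red triangles of library 2 stand above 0 for Spic and Maf and below 0 for Gfi1, Myb, Cebpb, Cebpe and Runx1, and Cebpa and Spi1 hardly spread in Epor-eGFP+.

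FPKM are per length, so the levels of the factors can be ordered. In Epor-eGFP+ the means ran Spi1, Cebpe, Myb, Cebpb, Cebpa, Spic, Gfi1, Maf and Runx1. The library ranges of Spi1, Cebpe and Myb were separate, from Myb down to Maf each neighbour overlapped the next, and Runx1 lay below Maf. In Epor-eGFP- the order was Spi1, Cebpe, Cebpb, Cebpa, Myb, Runx1, Gfi1, Maf and Spic, with overlap between Cebpe and Cebpb and between Maf and Spic. Spic thus moved from the last place to rank 6 and Myb from rank 5 to rank 3, while Spi1 and Cebpe kept ranks 1 and 2.

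The genes most like each factor were taken by Pearson's r of log2(FPKM + 1) over the 6 libraries, among 6237 other named genes averaging 10 FPKM or more, as a description, since the libraries fall into 2 groups. For Spic they were Kcnj10, a potassium channel, Cd163, the receptor for haemoglobin bound to haptoglobin, and Slco2b1, an organic anion transporter (r from 0.9996 to 0.9997). For Maf they were Bcl2a1b, a survival gene with close copies, Abcc3 and Fcna (r from 0.997 to 0.998). For Spi1 they were Maea, an adhesion and ubiquitin ligase protein of macrophages and erythroblasts, Rin3 and Lypla2 (0.9989 to 0.9996). For Myb they were Copg1, Rsl1d1, a nucleolar protein, and Dtymk, a kinase of DNA precursor synthesis (0.996 to 0.999), and Copg1 was also among those of Gfi1, with Hrsp12 and Rgcc (0.993 to 0.995).

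For Runx1 they were Pgk1, a glycolytic enzyme, March7 and Polg (0.996 to 0.999), and for Cebpb Angel2, Hip1r and Chic2 (0.991 to 0.992). For Cebpe they were Rcn1, Ffar2, a receptor for short-chain fatty acids, and Def6 (0.986 to 0.987). Cebpa, with the least spread between groups, had the lowest values, with Ass1, Pih1d1 and Insig1 (0.923 to 0.976).

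**Figure D5:**
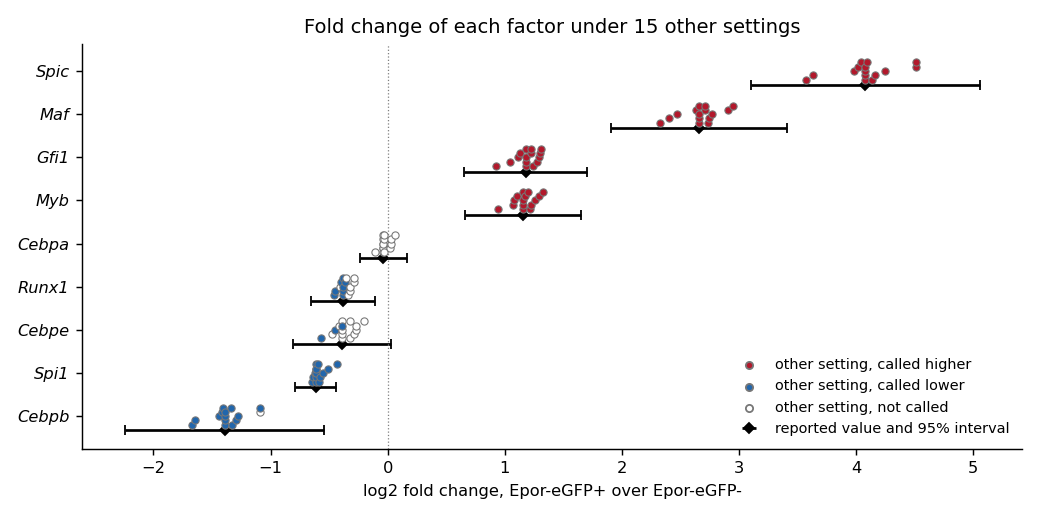
Log2 fold change of each factor as reported (black, with its 95% interval from limma) and under 15 other settings (small points, filled where called). Spic, Maf, Gfi1, Myb and Spi1 are called in every setting shown, Cebpb in all but 1, and Runx1 and Cebpe change sides of the threshold while Cebpa lies around 0.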

How the data were processed

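FPKM were deposited by the authors in 1 table of 11489 genes, and every gene reached at least 1.00 FPKM in some library. The submitters' processing notes name Cufflinks 2.2.1, TopHat2 2.1.0, Trimmomatic 0.35 and bcl2fastq 2.19.1.403, with build mm10. For annotation, filters and library scaling, details were not given in the sources used here. Columns name a group and a number from 0 to 2 (labels: 1 to 3), so they were assigned to groups only.

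limma 3.58.1 (R 4.3.3, eBayes with a mean-variance trend, two-sided) was fitted to log2(FPKM + 1) with group as the only term, and p-values were adjusted over 10964 genes. Fold changes are on that scale, which understates low genes. Same-numbered libraries deviated together from their group means (r = 0.25, 0.38 and 0.35, against −0.39 to 0.07 for other pairs). No label says what the numbers mark. The reported fit and the exact tests did not use them, and a replicate block was an alternative. With that block 3066 of all tested genes were called higher and 3335 lower. On simulated data with the same layout (10964 genes, 200 changed), recovery was 82.6% at a log2 fold of 1 and 91.7% at 2, with 12 of 187 calls false. The simulation drew each library independently and changed few genes, while 49.0% were called here, so its rates do not carry over to these data.

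Some genes of the lists are not reported here and were left out of every list count and sum. The factors, lists and alternatives were chosen with earlier results of these data known. Named are the 9 factors, up to 4 called genes per family or target list with the largest change (up to 3 of the highest level in marker lists), and the 3 genes most correlated with each factor. Treml4, Mmp9, Cd14, Csf1r and Tmem189 were named after their values were seen, and Cst7, Ms4a3, Itgb2l, Ltb4r1 and Cebpz only as list members. Positions and overlapping genes are from GENCODE M21 (GRCm38), promoters from RefSeq. Alternatives were a pseudocount of 0.1, no filter or a mean of at least 5 FPKM, 3 scalings, no trend, and libraries left out. Exact tests used scipy 1.17.1.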

Additional observations from a re-analysis of the deposited data

How the results depend on the processing

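Spic, Maf, Gfi1, Myb and Spi1 kept their direction and call under all 15 alternatives, with log2 fold changes of 3.57 to 4.51, 2.32 to 2.94, 0.92 to 1.31, 0.94 to 1.32 and −0.64 to −0.44. Cebpa turned to 0.063 under rescaling by the total, 0.024 by the upper quartile, 0.020 by quantiles and 0.029 without Epor-eGFP- library 1. Its values with a library left out ran from −0.11 to 0.03. Runx1 was at −0.28, −0.32 and −0.34 under the same 3 scalings and lost its call, and with a library left out at −0.46 to −0.28. Cebpb with a library left out ran from −1.67 to −1.09. Cebpe was called at −0.39 with the replicate block and at −0.45 without both libraries numbered 2, and ran from −0.57 to −0.27 with a library left out. The replicate block, which pairs libraries by number, changed no other call among the 9 factors. With a library left out, 1 to 4 factors were called lower and 4 higher, and over all genes 1611 to 2428 were higher and 2060 to 2700 lower against 2489 and 2883. The Spic to Spi1 shift ran from 4.17 to 5.13 and the Cebpe to Cebpa shift from −0.53 to −0.16 under the 8 alternatives run for them. The causes of these changes were not tested. FPKM hold no depth, so counting error cannot be given.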
